A study of Homo sapiens with 4 samples.

Results

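The genes described here are 9 members of the NRF2 antioxidant pathway: the transcription factor gene NFE2L2, which encodes NRF2, its inhibitor gene KEAP1, and 7 genes known as NRF2 targets (HMOX1, NQO1, GCLC, GCLM, TXNRD1, SLC7A11 and SRXN1). They were chosen by name from the probe annotation, through every probe set whose annotation gave exactly 1 gene symbol and where that symbol was one of the 9. This gave 20 of 54613 probe sets on the array and 9 of 19775 genes. Of these, 18 probe sets reached the signal floor explained below on at least 1 array and 13 on all 4 arrays, while 8 of the 9 genes were at or above it on all 4 arrays through their brightest probe set.

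Gene expression was measured on 4 oligonucleotide arrays. They hold the rituximab-resistant subline Jeko-1/R and its parent Jeko-1, a human mantle cell lymphoma line, and the rituximab-resistant subline Raji/R and its parent Raji, a human Burkitt lymphoma line. CD20, a surface protein of B cells, is the target of the antibody rituximab; the labels describe the sublines as treated with it and the parents as not, without a dose or duration. Each group had 1 array and there were no replicates, so precision is limited by their number, and the sources used here do not give how the sublines were selected or whether they are clones.

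NRF2 switches on genes that make glutathione, reduce thioredoxin, regenerate NADPH-dependent reductants and break down haem and quinones. In resting cells KEAP1 holds NRF2 in the cytoplasm and hands it to the CUL3 ubiquitin ligase for degradation, and oxidants or electrophiles that modify KEAP1 release it. The control therefore acts mainly on the protein, which these arrays do not read. NRF2 activity is widely linked to tolerance of oxidative stress and of some cytotoxic drugs.

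Signals are given on the linear scale, and log2 ratios are of resistant over parental signal unless stated. The pooled median of all values, a signal of 77.5, served as a floor to which lower values were raised, and 2-fold was the size called changed within a line. All 9 measured markers of B cells were at or above the floor on all 4 arrays. The Raji/R array stood apart, with 55.6% of probe sets at or above the floor, against 48.0% to 48.3% on the other arrays. As a stand-in for error, the SD of log2 ratios between probe sets of 1 gene was taken over all genes, and was 0.25 for Jeko-1 (5310 genes) and 0.49 for Raji (4949 genes). It does not hold the spread between cultures. The arrays read RNA of whole cultures, in which fewer cells expressing a gene and less RNA per cell cannot be told apart.

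**Figure D1:**
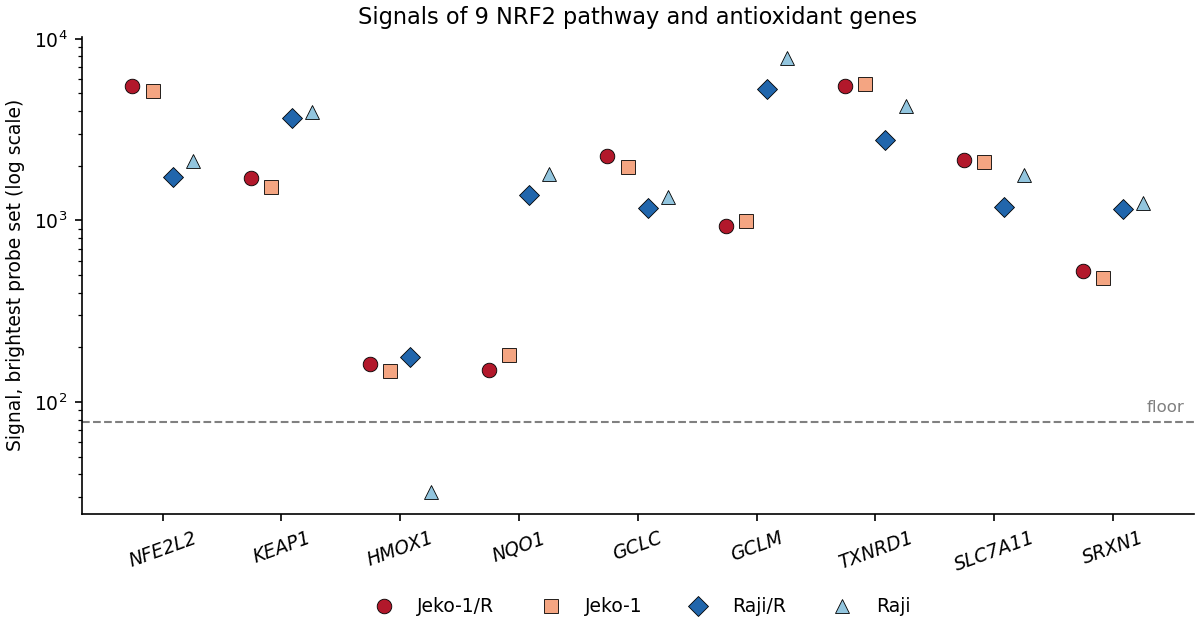
Signal of the brightest probe set of each of the 9 genes (vertical axis, log scale) on each array, 1 point per array, with Jeko-1/R, Jeko-1, Raji/R and Raji from left to right within a gene. The dashed line is the floor of 77.5. The 2 arrays of a line lie close together for most genes, NQO1, GCLM, KEAP1 and SRXN1 are higher on the Raji arrays, and HMOX1 is below the floor in parental Raji alone.

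The first question was whether the pathway differed between the rituximab-resistant sublines and their parents. In Jeko-1/R none of the 9 genes changed 2-fold, and their log2 ratios lay between -0.27 and 0.20. Among all genes 0.38% of 11588 passed 2-fold upward there and 0.595% downward. In Raji/R 8 of the 9 genes had lower signals than in Raji, by less than 2-fold, and only HMOX1 passed 2-fold, upward. Among all genes 7.01% of 14642 passed 2-fold upward in Raji/R, 2.64% passed it downward, and 43.9% had a log2 ratio below 0. The smallest and largest log2 ratios of the 8 lower genes were -0.62 for TXNRD1 and -0.11 for SRXN1, and their median was -0.34.

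Among the regulators, NFE2L2 had a signal of 5499 in Jeko-1/R against 5187 in Jeko-1, a log2 ratio of 0.08. It had 1737 in Raji/R against 2116 in Raji, a log2 ratio of -0.28. Both ratios were smaller than the SD between probe sets of 1 gene in that pair. A dim second probe set of NFE2L2 gave 113 in Jeko-1/R against 81.9 in Jeko-1 (0.47), and 44.3 in Raji/R, below the floor, against 154 in Raji, which is at least 1.99-fold lower. It had the same signs as the bright probe set in both lines. The last one was below the floor on all 4 arrays, and another that is shared with CSNK2A1 was not used.

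KEAP1, the adaptor that presents NRF2 to its ubiquitin ligase, was read by 1 probe set. Its signal was 1705 in Jeko-1/R against 1523 in Jeko-1, a log2 ratio of 0.16, and 3652 in Raji/R against 3974 in Raji, a log2 ratio of -0.12. The resistant and parental values of KEAP1 thus lay within 1.12-fold of each other in Jeko-1 and within 1.09-fold in Raji.

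The genes of cystine uptake and glutathione synthesis came next. SLC7A11 encodes the transport subunit of the cystine/glutamate antiporter, which brings in the cysteine needed for glutathione. Its brightest probe set gave 2149 in Jeko-1/R against 2097 in Jeko-1 (0.04), and 1189 in Raji/R against 1771 in Raji (-0.58). A second probe set also fell short of 2-fold, with 1531 in Jeko-1/R against 1726 in Jeko-1 (-0.17) and 554 in Raji/R against 948 in Raji (-0.77). The last was below the floor in both Jeko-1 arrays and nearly level in the Raji pair, with 343 in Raji/R against 327 in Raji. SLC7A11 was therefore lower in Raji/R by 2 of its 3 probe sets.

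GCLC encodes the catalytic subunit of glutamate-cysteine ligase, the rate-limiting enzyme of glutathione synthesis. Its signal was 2276 in Jeko-1/R against 1976 in Jeko-1 (0.20), and 1165 in Raji/R against 1339 in Raji (-0.20). The second probe set of GCLC had the same sign in Jeko-1/R (0.17) and the opposite sign in Raji/R, with 740 in Raji/R against 560 in Raji (0.40). The direction of GCLC in Raji/R thus depended on the probe set.

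GCLM encodes the modifier subunit of the same ligase, which raises the activity of GCLC. It gave 934 in Jeko-1/R against 991 in Jeko-1 (-0.09), and 5264 in Raji/R against 7797 in Raji (-0.57). All 3 probe sets of GCLM were lower in Raji/R than in Raji, at -0.57, -0.43 and -1.24, a mean of -0.74 ± 0.43 (SD between 3 probe sets). The last of these, with 120 in Raji/R against 283 in Raji, was the 1 member probe set that passed 2-fold downward. In Jeko-1/R the 3 probe sets averaged 0.07 ± 0.27 and did not share a sign.

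In the thioredoxin branch, TXNRD1 encodes the cytosolic thioredoxin reductase, a selenoenzyme. Its signal was 5477 in Jeko-1/R against 5647 in Jeko-1 (-0.04), and 2761 in Raji/R against 4241 in Raji (-0.62). The Raji/R value was the lowest of the 4 arrays. The second probe set of TXNRD1 was below the floor on all 4 arrays. SRXN1 encodes sulfiredoxin, which repairs overoxidised peroxiredoxins. It was nearly level within each line, with 527 in Jeko-1/R against 481 in Jeko-1 (0.13) and 1158 in Raji/R against 1247 in Raji (-0.11).

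Promoter sequence is shown for members that hold the core of the antioxidant response element, TGACNNNGC, to which NRF2 binds with a small MAF protein. GCLM and TXNRD1 are shown because theirs were 2 of the 3 lowest log2 ratios in Raji/R by brightest probe set, and KEAP1 because the inhibitor's own promoter holds matches. The motif was searched on both strands (GCNNNGTCA on the other strand) in windows of 250 bases before to 50 after each transcription start, from RefSeq, build GRCh38.p14. It starts with the letters TGAC, which AP-1 and MAF sites share, so a match is not specific to NRF2. It occurred in 13.3% of 35116 windows and in at least 1 window of 16.1% of 27305 genes. Windows were given for 7 of the 9 genes, and 3 of these 7 held a match: GCLM, TXNRD1 and KEAP1. NFE2L2, NQO1, GCLC and SRXN1 had no match within their windows, and HMOX1 and SLC7A11 had no entry. The search could not see elements outside these windows, so these genes are not shown to lack one. In the lines below capitals mark the match, and all sequences read 5′ to 3′ on the gene's strand.
GCLM, chr1:93909431-93909530, minus strand, the 100 bases before the start: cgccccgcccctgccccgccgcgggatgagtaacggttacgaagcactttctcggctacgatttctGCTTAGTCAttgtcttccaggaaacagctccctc
TXNRD1, chr12:104215670-104215778, plus strand, the 109 bases before its outermost start: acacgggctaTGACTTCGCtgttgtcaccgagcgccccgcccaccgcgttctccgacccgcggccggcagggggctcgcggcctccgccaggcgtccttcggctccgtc
TXNRD1, chr12:104286920-104286948, plus strand, a stretch 29 bases long upstream of a start inside the gene: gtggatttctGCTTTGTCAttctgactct
KEAP1, chr19:10502807-10502835, minus strand, a stretch 29 bases long upstream of a start inside the gene: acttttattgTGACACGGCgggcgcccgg
KEAP1, chr19:10502784-10502812, minus strand, a second stretch of that length, nearer to the same start: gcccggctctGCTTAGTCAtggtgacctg
The first base of the match lies at -34 in GCLM, at -99 and -102 in the TXNRD1 windows and at -54 and -31 in KEAP1, counted back from -1, the base before the start. A further match in TXNRD1 begins at -8 and runs across the start. GCLM and KEAP1 hold the same 9 letters, GCTTAGTCA. By brightest probe set the members with a match had log2 ratios in Raji/R of -0.57 (GCLM), -0.62 (TXNRD1) and -0.12 (KEAP1). Those searched without a match had -0.39 (NQO1), -0.28 (NFE2L2), -0.20 (GCLC) and -0.11 (SRXN1). GCLM and TXNRD1 were shown for their low ratios, and a link between motif and ratio was not tested.

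The last pair of members are detoxifying enzymes. NQO1 encodes a quinone reductase that is widely used as a readout of NRF2 activity. Its brightest probe set gave 151 in Jeko-1/R against 182 in Jeko-1 (-0.27), and 1377 in Raji/R against 1810 in Raji (-0.39). A second probe set had the same signs, at -0.41 (Jeko-1/R) and -0.51 (Raji/R). The last of the NQO1 probe sets went the other way in the Raji pair, with 465 in Raji/R against 308 in Raji (0.59), and was below the floor in both Jeko-1 arrays. The 3 probe sets together averaged -0.10 ± 0.61 in Raji/R (SD between 3 probe sets), so no direction held for NQO1 across its probe sets there.

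HMOX1 encodes haem oxygenase 1, a stress-induced enzyme that degrades haem, and was the 1 member called changed. Its signal was 163 in Jeko-1/R against 148 in Jeko-1, a log2 ratio of 0.14. It was 178 in Raji/R against 32.0 in Raji, which is below the floor, so HMOX1 was at least 2.30-fold higher in Raji/R. The 2 Jeko-1 arrays and Raji/R lay close together, and parental Raji was the low one. HMOX1 was read by 1 probe set, so no other probe set bears on this value. With arrays centred on a common median the log2 ratio was 0.88, short of 2-fold, and a floor at the 75th percentile left HMOX1 unmeasured in this pair. HMOX1 is also expressed by macrophages. Of 9 measured myeloid markers, 4 were at or above the floor in Raji/R against 2 in Raji, and their summed signal was 1099 in Raji/R against 634 in Raji. The brightest of them, ITGAM, had 279 in Raji/R against 314 in Raji, and CSF1R had 241 in Raji/R against 155 in Raji. S100A8 stood at 227 in Raji/R against 12.0 in Raji, and CD163 at 87.3 in Raji/R against 26.0 in Raji. The monocyte marker CD14 was below the floor on both arrays, at 51.8 in Raji/R and 47.3 in Raji, and the other myeloid markers were too. Other marker lists also had higher sums in Raji/R: NK cell markers 2147 in Raji/R against 1121 in Raji, and erythroid and platelet markers 1125 in Raji/R against 572 in Raji. The sums of T cell markers (554 in Raji/R against 535 in Raji), epithelial and stromal markers (2496 in Raji/R against 2431 in Raji) and B cell markers (86772 in Raji/R against 75355 in Raji) differed less. The part of these markers in the HMOX1 value was not tested.

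**Figure D2:**
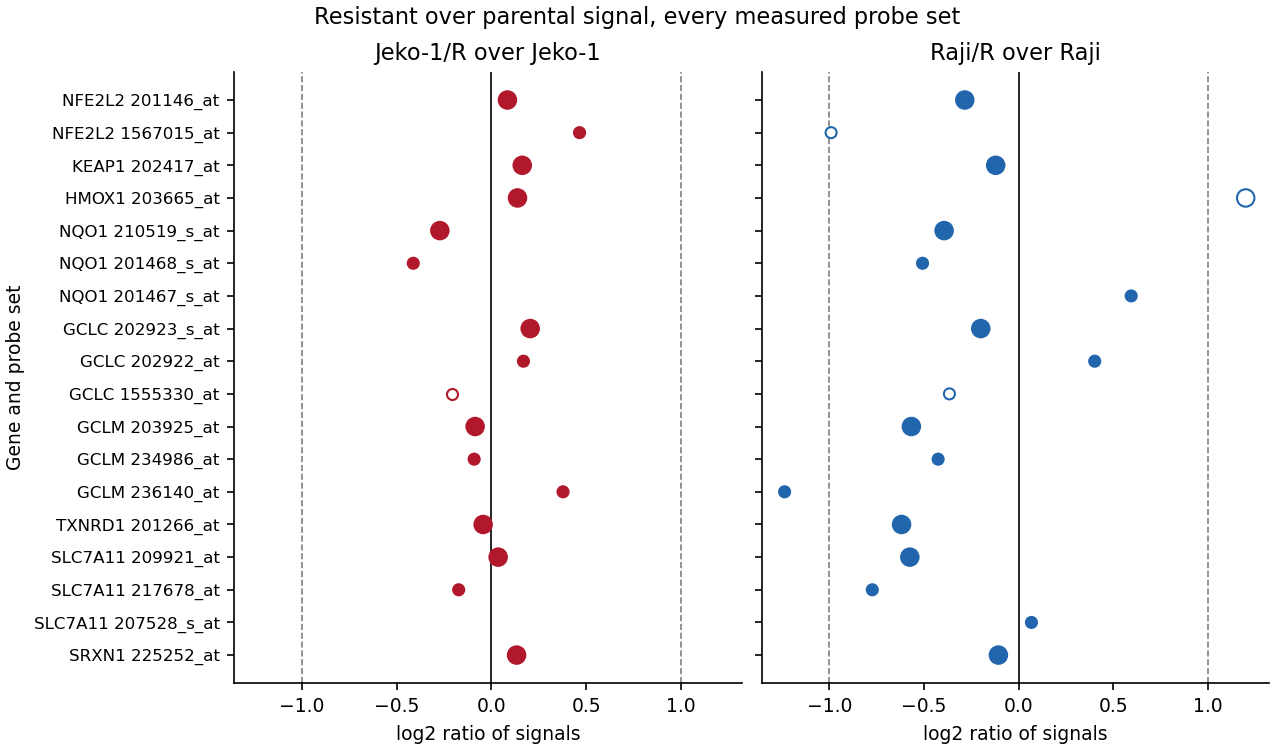
Log2 ratio of resistant over parental signal (horizontal axis) for the 18 member probe sets that reached the floor on at least 1 array, for Jeko-1/R over Jeko-1 (left) and Raji/R over Raji (right). Large points are the brightest probe set of a gene, small points its other probe sets, and open points have 1 value raised to the floor; dashed lines mark 2-fold, and 2 probe sets below the floor in both Jeko-1 arrays have no point there. In Raji/R HMOX1 lies beyond 2-fold on the right and 1 GCLM probe set beyond it on the left. There 14 of 18 points lie left of 0, but up to 3 points belong to the same gene. Of the large points, 1 per gene, 8 of 9 lie left of 0, where 43.9% of all genes do.

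These counts were read against all genes. A single member past 2-fold among 9 in Raji/R is near the 7.01% background and is not a result about the pathway. Of the genes changed in Raji/R 72.7% were higher, against 53.6% with quantile normalization and 22.1% with arrays centred on a common median. A log2 ratio below 0 was found for 8 of 9 members in Raji/R, where 43.9% of all genes were below 0. In Jeko-1/R it was found for 3 of 9 members, where 49.8% of all genes were. All genes were not matched to the members for signal. A floor at the 75th percentile moved the Raji/R median of all genes to -0.03, with 53 genes 2-fold higher and 86 lower. In Raji/R the ratios of NFE2L2, KEAP1, NQO1, GCLC and SRXN1 were smaller than the SD of 0.49 between probe sets of 1 gene. The members' median log2 ratio was -0.28 in Raji/R, where that of all genes was 0.08, and 0.08 in Jeko-1/R, where that of all genes was 0.001. Centring the arrays moved the Raji/R median of all genes to -0.31 and that of the members to -0.69, and TXNRD1 then passed 2-fold at -1.03. The same number, 8 of 9, lay below the median of all genes in Raji/R with quantile normalization and with centring. Without probe sets whose IDs end in x_at or s_at it was 6 of 8, since GCLC was then read by its other bright probe set and NQO1 had none left.

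A joint fit asked whether any gene moved the same way with resistance in both lines. No gene passed this test: in limma, with cell line as a term, 0 of 15575 genes passed an adjusted p of 0.05 (0%), with 324 at an unadjusted p under 0.05. HMOX1 had the largest estimate among the members, 0.67 ± 0.32 on the log2 scale (SE; limma adjusted p = 0.974), with parental Raji raised to the floor. Its signal was higher in both sublines, but the Jeko-1/R ratio of 0.14 was smaller than the SD of 0.25 between probe sets of 1 gene. NQO1 was lower in both sublines by its brightest probe set, with an estimate of -0.33 ± 0.24 (SE; limma adjusted p = 0.974). TXNRD1 (-0.33) and GCLM (-0.33) were also below 0 in both sublines by their brightest probe sets, though only at -0.04 and -0.09 in Jeko-1/R. The other members had opposite signs in the 2 lines.

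The second question was how the pathway differed between the mantle cell and the Burkitt lines, over both states. By brightest probe set NFE2L2 was higher and KEAP1 lower in the Jeko-1 lines than in the Raji lines, and NQO1 and SRXN1 were lower in the Jeko-1 lines. The fit was limma with resistance as a term, on 2 arrays per line that are a parent and its own subline. Its p-values measure only the spread among these 4 arrays, not between cultures of a line. In this fit 6 of 9 members passed an adjusted p of 0.05, 2 higher and 4 lower in the Jeko-1 lines. Of all 15575 genes 53.4% passed (23.3% higher and 30.1% lower), so the members' count is near what is seen over all genes. Leaving out an array changed the calls. Without the Jeko-1/R array 0 genes passed (6074 at an unadjusted p under 0.05), and without the Jeko-1 array 0 passed (6059 at that p). Without the Raji/R array 4 members passed, with KEAP1 (limma adjusted p = 0.055) and GCLC (limma adjusted p = 0.137) lost. Without the Raji array 7 passed, with GCLC lost (limma adjusted p = 0.0881) and TXNRD1 and SLC7A11 gained. By brightest probe set the log2 differences of the 6 called members kept their signs in these 4 fits. This was fixed in advance, because the arrays of the lines do not overlap for these 6 genes. The differences ran from 0.66 to 0.87 for GCLC, the smallest, and from -3.45 to -3.05 for NQO1, the largest.

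NFE2L2 had 5499 and 5187 in Jeko-1/R and Jeko-1, against 1737 and 2116 in Raji/R and Raji. The log2 difference was 1.48 ± 0.25 (SE; limma adjusted p = 0.00243), or 2.79-fold higher in the Jeko-1 lines, and the arrays of the lines did not overlap. The dim second probe set of NFE2L2 gave -0.18, with Raji/R raised to the floor, and its arrays overlapped, and with the mean of all its probe sets NFE2L2 did not pass the test (0.43). KEAP1 had 1705 and 1523 in Jeko-1/R and Jeko-1, against 3652 and 3974 in Raji/R and Raji. It was 2.36-fold lower in the Jeko-1 lines (-1.24 ± 0.25, SE; limma adjusted p = 0.00496). By their brightest probe sets the genes of the activator and of its inhibitor thus differed between the lines in opposite directions. Neither passed limma with no floor (adjusted p = 0.0544 for NFE2L2 and 0.0638 for KEAP1). Neither passed with no gene left out for low values (limma adjusted p = 0.107 for NFE2L2 and 0.101 for KEAP1).

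The largest difference among the members was that of NQO1. Its brightest probe set had 151 and 182 in Jeko-1/R and Jeko-1, against 1377 and 1810 in Raji/R and Raji. The log2 difference was -3.25 ± 0.24 (SE; limma adjusted p = 8.35e-05), a signal 9.52-fold lower in the Jeko-1 lines. All 3 probe sets of NQO1 were lower in the Jeko-1 lines, another at -1.10 and the last at least 4.88-fold lower, since it was below the floor on both Jeko-1 arrays. Each passed limma fitted to every probe set, with values below the floor raised to it, where 49.7% of 29669 probe sets passed. Probe sets of 1 gene varied in this difference with an SD of 0.83 over 4191 genes. SRXN1 had 527 and 481 in Jeko-1/R and Jeko-1, against 1158 and 1247 in Raji/R and Raji (-1.25 ± 0.25, SE; limma adjusted p = 0.00459). It was read by 1 probe set, and its arrays did not overlap between the lines.

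The glutathione genes depended on the probe set. The brightest probe set of GCLM had 934 and 991 in Jeko-1/R and Jeko-1, against 5264 and 7797 in Raji/R and Raji (-2.74 ± 0.26, SE; limma adjusted p = 0.000192). The other GCLM probe sets ran the opposite way, at 1.03 and 1.61, and all 3 passed limma fitted to every probe set. Their mean was -0.03 ± 2.36 (SD between 3 probe sets), so no direction between the lines is given for GCLM. SLC7A11 was split in the same manner: its brightest probe set gave 0.55 ± 0.27 (SE; limma adjusted p = 0.131), the second 1.17, and the last was at least 4.32-fold lower in the Jeko-1 lines, with 52.8 and 76.8 in Jeko-1/R and Jeko-1, both below the floor, against 343 and 327 in Raji/R and Raji. With the mean of its probe sets SLC7A11 changed sign, to -0.13. GCLC was higher in the Jeko-1 lines by both bright probe sets (0.76 ± 0.26, SE; limma adjusted p = 0.0399, and 1.19 for the other), but the brightest did not pass with quantile normalization (0.59). The dim last probe set of GCLC stood at -0.08, with both resistant arrays raised to the floor.

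TXNRD1 had 5477 and 5647 in Jeko-1/R and Jeko-1, against 2761 and 4241 in Raji/R and Raji. The difference of 0.70 ± 0.27 did not pass the test (SE; limma adjusted p = 0.0626), although the arrays of the lines did not overlap. It passed with quantile normalization (0.84) and with centred arrays (0.97). HMOX1 was the 1 member whose brightest probe set overlapped between the lines: its difference was -0.13 between Jeko-1/R and Raji/R and 0.93 between Jeko-1 and Raji, with parental Raji raised to the floor. Arrays of the lines did not overlap for 8 of 9 members, nor for 72% of all 15575 genes.

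**Figure D3:**
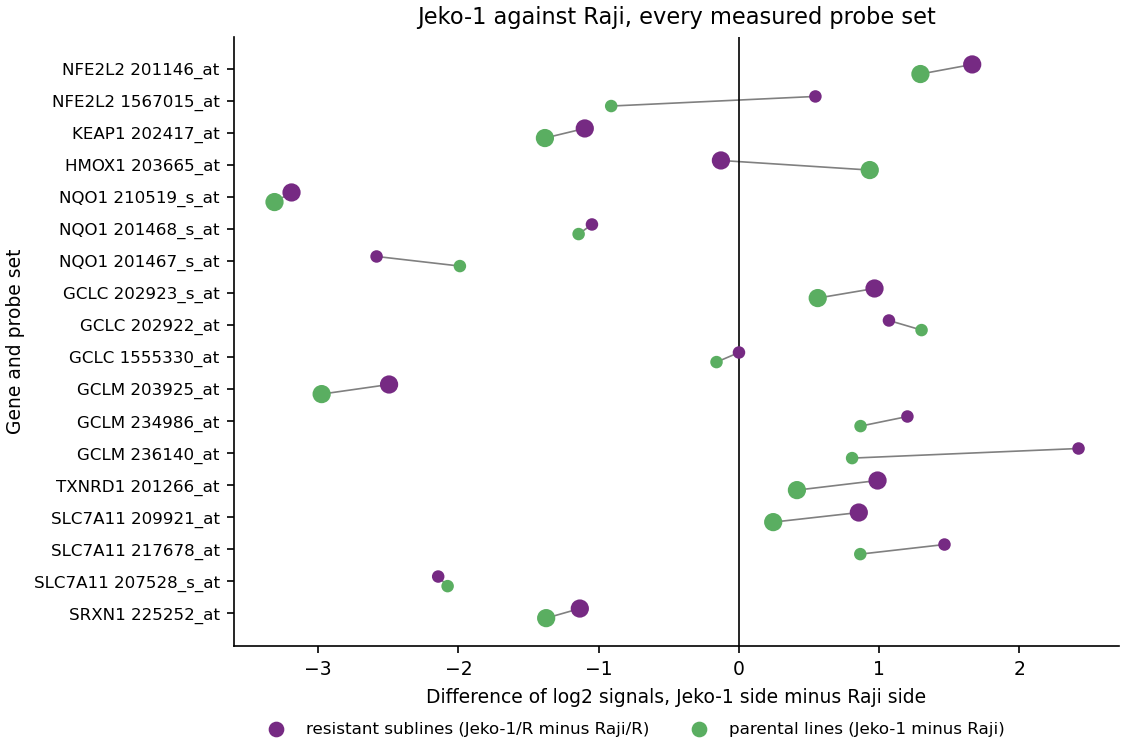
Difference of log2 signals between the lines (horizontal axis, Jeko-1 side minus Raji side) for the 18 member probe sets that reached the floor on at least 1 array, between the resistant sublines (purple) and between the parental lines (green). Large points are the brightest probe set of a gene and small points its other probe sets. The 3 NQO1 probe sets all lie left of 0, while the probe sets of GCLM and of SLC7A11 lie on both sides.

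By likeness of pattern over the 4 arrays, taken as the Euclidean distance between log2 values centred on their mean among 9219 genes at or above the floor on all arrays, the genes nearest to NFE2L2 were FBXO38 (distance 0.03), UBE3A (0.04) and MAGT1 (0.05). The genes nearest to NQO1, the member with the widest range at 3.58 log2 units, were MAML2 (0.04), CFL2 (0.05) and HAGHL (0.17). MAML2, for one, had 78.3 and 97.4 in Jeko-1/R and Jeko-1, against 715 and 938 in Raji/R and Raji. These distances rest on 4 arrays and mostly follow the difference between the lines.

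The wider pathway was read through 125 other genes in 7 lists: regulators of NRF2, glutathione, thioredoxin and peroxiredoxin, superoxide and peroxide removal, NADPH supply, haem and iron, and detoxification. Of these 118 had a probe set of their own and 109 were at or above the floor on at least 1 array. In Jeko-1/R 0 of 94 measured genes changed 2-fold, and their median log2 ratio was -0.06. In Raji/R 8 of 105 passed 2-fold upward and 4 downward, with a median of 0.05. These shares are near the 7.01% and 2.64% of all genes and are not a result about the pathway. The split turned to 2 higher and 11 lower with centred arrays.

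The 8 higher genes had signals between 17.2 and 420 in Raji. The glutathione list, the largest with 31 of the 105 genes measured in this pair, held 4 of them. GSTM3, a glutathione transferase, was at least 2.86-fold higher, with 221 in Raji/R against 28.8 in Raji, and GPX7, a peroxidase of the endoplasmic reticulum, at least 2.18-fold higher, with 169 in Raji/R against 51.8 in Raji. GSTM1 had 513 in Raji/R against 220 in Raji (1.22), but its other probe set gave 0.02, and GSTM1 shares sequence with other transferases of its family. The glutathione peroxidase gene GPX2 had 177 in Raji/R against 85.6 in Raji (1.05).

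The other 4 higher genes came from 2 lists. The extracellular superoxide dismutase gene SOD3 was at least 3.08-fold higher, with 239 in Raji/R against 64.2 in Raji. The aldo-keto reductase gene AKR1C2 was at least 2.17-fold higher, with 168 in Raji/R against 17.2 in Raji, through an x_at probe set that may also bind its close relatives. TRIM16, a tripartite-motif protein gene, had 890 in Raji/R against 420 in Raji (1.08). Its near copy TRIM16L had 492 in Raji/R against 236 in Raji (1.06), with -0.23 from its other probe set. In Jeko-1/R TRIM16L was also higher, short of 2-fold, with 211 against 122 in Jeko-1 (0.79). Its other probe set was below the floor there. GSTM1 had 0.21 and GPX7 -0.04 in Jeko-1/R, while GSTM3, GPX2, SOD3, AKR1C2 and TRIM16 were below the floor on both Jeko-1 arrays.

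The 4 lower genes had signals between 264 and 6776 in Raji. ALDH2, the mitochondrial aldehyde dehydrogenase, had 89.3 in Raji/R against 264 in Raji (-1.56). IDH1, the cytosolic NADP-dependent isocitrate dehydrogenase and a source of NADPH, had 3121 in Raji/R against 6776 in Raji (-1.12), and its other probe set measured there gave -0.71. BTRC encodes the F-box protein of a KEAP1-independent ubiquitin ligase for NRF2. It had 266 in Raji/R against 561 in Raji (-1.08), with -0.40 from 1 other probe set, while another was at least 2.49-fold lower, with 15.6 in Raji/R, below the floor, against 193 in Raji. CHAC2, a glutathione-degrading enzyme, had 456 in Raji/R against 915 in Raji (-1.005). In Jeko-1/R the log2 ratios of IDH1 (0.004), CHAC2 (0.04), BTRC (-0.03) and ALDH2 (-0.005) were close to 0.

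**Figure D4:**
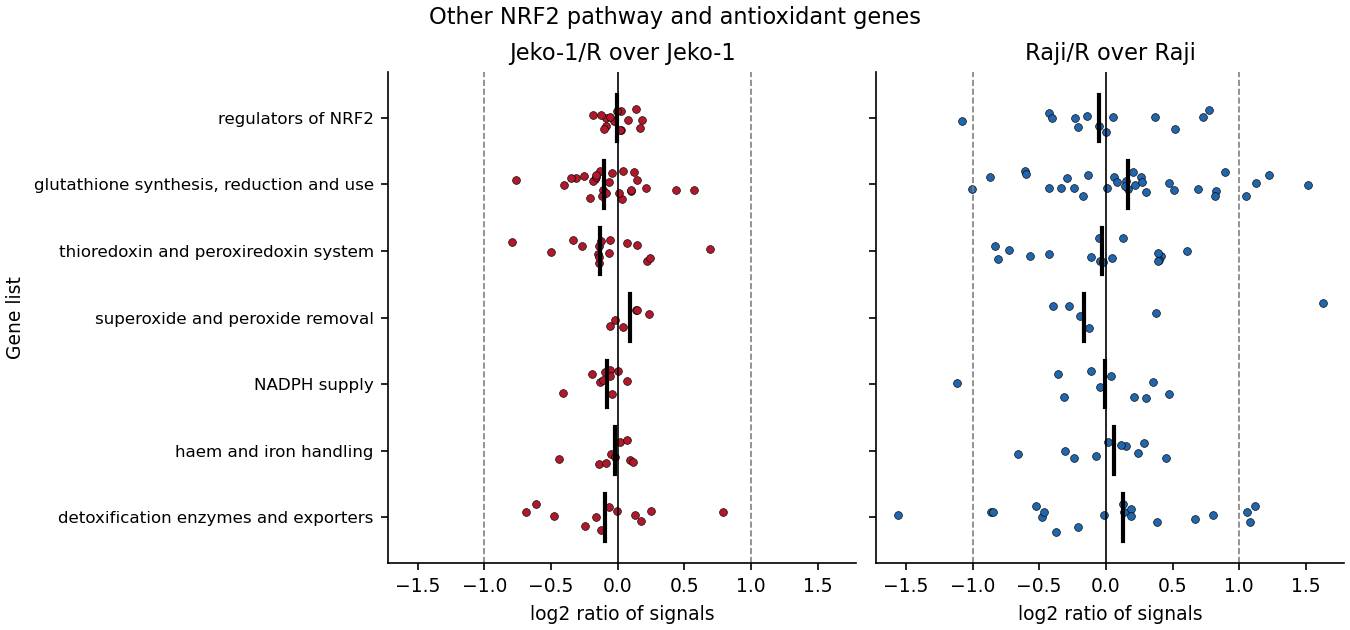
Log2 ratio of resistant over parental signal (horizontal axis) for the measured genes of the 7 other lists, for Jeko-1/R over Jeko-1 (left, 94 genes) and Raji/R over Raji (right, 105 genes). Each point is a gene, with random vertical offset, black bars are list medians and dashed lines mark 2-fold. No point passes 2-fold in Jeko-1/R, and 12 do in Raji/R.

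Between the lines, 23 of 109 other pathway genes were higher and 52 lower in the Jeko-1 lines by limma, beside 23.3% and 30.1% of all genes. The median log2 difference of the 109 genes was -0.74, and that of all genes -0.29. The thioredoxin and peroxiredoxin list had 2 higher and 11 lower of 16, with a median of -1.26, the NADPH list 1 higher and 7 lower of 10, with a median of -1.19, and the haem and iron list 3 higher and 5 lower of 10, with a median of -1.002. The glutathione list had 5 higher and 15 lower of 31. The detoxification list had 4 higher and 8 lower of 20. The regulators had 6 higher and 5 lower of 15, and superoxide and peroxide removal 2 higher and 1 lower of 7. Without the Jeko-1/R array, or without the Jeko-1 array, 0 of these genes passed.

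The genes furthest apart in each list were these. Among regulators, BACH2, a B-cell repressor that binds with small MAF proteins at sites like those of NRF2, had 5101 and 4838 in Jeko-1/R and Jeko-1, against 61.3 and 4.06 in Raji/R and Raji, so it was at least 64.1-fold higher in the Jeko-1 lines. Its other probe set gave 1277 and 1221 in Jeko-1/R and Jeko-1, against 26.4 and 249 in Raji/R and Raji, so BACH2 reached the floor in parental Raji by that probe set. DPP3, whose protein can bind KEAP1 in place of NRF2, was 5.07-fold lower in the Jeko-1 lines, with 609 and 653 in Jeko-1/R and Jeko-1, against 4180 and 2442 in Raji/R and Raji.

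In the glutathione list, GSTP1, a glutathione transferase, had 5195 and 6457 in Jeko-1/R and Jeko-1, against 229 and 251 in Raji/R and Raji, 24.1-fold higher in the Jeko-1 lines. CHAC1, which degrades glutathione, was 10.2-fold lower in the Jeko-1 lines. TXNIP, the thioredoxin inhibitor, was 7.46-fold lower in the Jeko-1 lines, and its other probe sets gave log2 differences of -2.35 and -2.62. SESN3, a sestrin, was 7.91-fold higher in the Jeko-1 lines by its brightest probe set, but its other measured probe sets lay between -1.08 and -0.42 with values below the floor raised to it. SOD2, the mitochondrial superoxide dismutase, was 4.21-fold lower and PON2, a paraoxonase, at least 8.73-fold higher in the Jeko-1 lines.

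Among NADPH genes, PGLS, of the pentose phosphate pathway, was 8.09-fold lower in the Jeko-1 lines by its brightest probe set. Its other probe sets gave log2 differences between -2.86 and -0.43. NNT, the mitochondrial transhydrogenase, was 4.18-fold higher in the Jeko-1 lines by its brightest probe set. Its other probe sets lay between 0.18, with values below the floor raised to it, and 2.49. HMOX2, the constitutive haem oxygenase, had 174 and 172 in Jeko-1/R and Jeko-1, against 2144 and 2534 in Raji/R and Raji, 13.5-fold lower in the Jeko-1 lines, though its other probe set gave a log2 difference of -0.85. CPOX, of haem synthesis, was 9.45-fold higher in the Jeko-1 lines. ALDH2 had 3150 and 3161 in Jeko-1/R and Jeko-1, against 89.3 and 264 in Raji/R and Raji, 20.6-fold higher in the Jeko-1 lines. ABCC4, an exporter of organic anions, was below the floor on both Jeko-1 arrays and at least 9.27-fold lower there than in the Raji lines. The 14 genes named here for the lines were picked among those that passed limma (adjusted p between 2.45e-05 and 0.00063). Their passing is therefore no separate support.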

How the data were processed

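Total RNA was extracted with Trizol and biotin-labelled for the arrays, per the labels' protocols. Per the submitters' processing notes, MAS5 produced the signals; no version is named. The authors deposited log2 signals, with base 2 inferred here because it gives trimmed mean signals of 494 to 497 on all 4 arrays (2% trimmed at each end). The platform annotation named the probe sets (41091 with 1 symbol, 1801 with several and 11721 with none), and symbols were checked by gene ID against RefSeq GRCh38.p14 (0 changed). For each gene the probe set of highest mean signal was used, values under the floor were raised to it, and a ratio with 1 value below the floor is written "at least". With 1 array per group no test was made within a line. The joint fits used limma 3.58.1 (R 4.3.3) on 15575 genes with cell line and resistance as terms, empirical Bayes moderation and two-sided Benjamini-Hochberg adjustment; the cell line pairs each subline with its parent. The limma step was tested on simulated data with independent noise between arrays. That was a check of the code and does not bear on the calls made here, since a parent and its subline are not independent. Other settings were 7 changes of floor, scaling or probe set, changes of the model, and each array left out; the fit to every probe set was added after seeing the data. The members and lists were chosen with earlier results of these data known. All 9 members were named, and of the other lists each gene changed 2-fold in a line. From each list the gene furthest apart between the lines in each direction was also named, among those that passed limma. Python 3.11.15, numpy 2.4.6, pandas 2.3.3 and matplotlib 3.10.9 were used.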

Additional observations from a re-analysis of the deposited data

Results flagged for a closer look

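These results are listed because resistant over parental ratios had opposite signs in the 2 lines. With 1 array per group the differences were not tested. Among the members, the log2 ratio in Jeko-1/R minus that in Raji/R was 0.37 for NFE2L2, 0.28 for KEAP1, 0.40 for GCLC, 0.61 for SLC7A11 and 0.24 for SRXN1, and none of these genes changed 2-fold in either line. Among the other pathway genes it was 1.05 for CHAC2, -1.17 for GPX7 and 1.12 for IDH1, each with a ratio near 0 in Jeko-1/R. HMOX1 had opposite signs between the lines in the 2 states: Jeko-1/R minus Raji/R was -0.13 and Jeko-1 minus Raji was 0.93, so that the difference between states was -1.06. Its value in parental Raji was raised to the floor. No group had enough arrays for a check of single outlying arrays.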

How the results depend on the processing

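The count of genes changed 2-fold was 113 in Jeko-1/R. A floor at the 75th percentile gave 26, and the count was 432 with no floor, 66 with a pseudocount and 47 when probe sets were averaged. The count in Raji/R was 1412, and it was 139 with the higher floor, 3373 with no floor and 718 with averaged probe sets. The 1 member changed in Raji/R became 0 with the higher floor, and with centred arrays the 1 changed member was TXNRD1 in place of HMOX1. With no floor HMOX1 had a log2 ratio of 2.48 in Raji/R. The 12 other pathway genes changed in Raji/R became 3 with the higher floor, 6 with a pseudocount and 5 with averaged probe sets; in Jeko-1/R 1 was called without x_at and s_at probe sets, against 0. Between the lines, 8319 genes, 6 members and 75 other pathway genes passed limma. With no floor these counts were 4379, 2 and 42, and with no gene left out for low values 1494, 1 and 11. Fitted to every probe set, 14757 probe sets passed. Leaving out 1 array gave 0 to 9223 genes, 0 to 7 members and 0 to 70 other pathway genes; the lone array of a line was then taken to vary like the other line. For resistance over both lines, limma called 4 genes with centred arrays and 0 in every other fit, among them the fit with no replicate block, where the cell line was not a term (4 genes at an unadjusted p under 0.05); no member was called. The causes of these changes were not tested, beyond fewer genes or arrays where a setting removes them. No paired analysis by replicate number was possible because the labels give none. Signals near the floor limit HMOX1, and 1 array per group limits all ratios.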
